A study of Mus musculus with 4 samples.

Results

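Translation initiation and elongation factors are the proteins that load ribosomes onto mRNA and then drive each step of peptide synthesis. The members were chosen by name: every protein-coding mouse row whose symbol begins with Eif1 to Eif6, Eef1 or Eef2, without Eif2s3y and the Eif2ak kinases, together with Tpt1 and with Gm17638, the row that lies opposite Eif3d. This gave 64 of the 50600 rows in the gene tables, 63 of them protein-coding, and Gm17638, which GENCODE vM21 types as antisense. The data were RNA libraries of primary T helper 2 (Th2) cells of mouse strain C57BL/6NJ. Th2 cells are the helper lineage that secretes interleukin-4 and interleukin-13 and drives type-2 immunity, and the labels link a protocol for differentiating CD4+ T cells. There were 4 libraries, labelled biological replicates 1 to 4 of 1 group, with separate biosamples but 1 donor identifier, so a test across them measures the spread between these samples, which may be technical. Age was unknown and sex was not collected, no treatment is given in the labels, and the file headers name 48 hours of a time course. With 1 group there is no contrast between conditions, so levels were compared within libraries and between replicates.

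Initiation begins when eIF2 brings the initiator tRNA to the small ribosomal subunit, helped by eIF1, eIF1A, eIF3 and eIF5. The cap-binding protein eIF4E, the scaffold eIF4G and the helicase eIF4A then recruit the mRNA, eIF5B joins the large subunit, and eEF1 and eEF2 carry out elongation. Activated T cells raise protein synthesis as they grow and divide, and many of these factors are then made in large amounts.

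Totals ran from 1785970 to 2271993 counts per library. At this depth the limit for a row at 0 is 3 counts, which is 1.32 to 1.68 CPM (the count scaled by the library total). Rows whose exons share at least 1 base with a gene on the other strand held 93.4% ± 0.855 of all counts (SD, n = 4), and 92.5%, 93.1%, 94.5% and 93.3% in replicates 1 to 4. The ribosomal RNA row CT010467.1 took 15.9% of the counts of replicate 4 and 3.25% to 5.02% of the others. Of 12 T cell markers 10 reached 1 TPM in all libraries, and of 8 Th2 markers 6 did, beside 13.3% of all rows and 21.8% of protein-coding rows. An overlap on the other strand was found for 2 of these T cell and 4 of these Th2 markers. Among the 4 were Gata3, at 44, 35, 21 and 20 counts, and Il5, at 0 in all libraries. Of 19 markers of other cell types and lineages 3 reached 1 TPM in all libraries: Cd79a, Cd68 and Csf1r, which has an overlap on the other strand. Csf1r had 1409, 1363, 1457 and 1066 counts and stood at 196 TPM ± 5.16 (SD, n = 4), the highest mean of all these markers. Next came the T cell marker Cd247, also with an overlap, at 168 ± 8.39. TPM is the count per kilobase of exon, scaled to 1 total in every library. The sources used here do not say which strand the libraries keep, and whether strand setting 1 of the counting is the right one for them was not tested. Each level is therefore the one assigned to the named row. With or without an overlap, a low or high row cannot be read as a low or high level of the gene's own transcript.

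The bases that members share with rows on the other strand are shown for 3 pairs, since a read pair from such bases can be given to either row only by its strand. All sequences are from GENCODE vM21 transcripts on GRCm38 (mm10), 5′ to 3′ on the member's strand, with the shared bases in capitals. The first is a whole coding exon of Eif3d (chr15:77963178-77963325, minus strand, 148 bases), all of it inside Gm17638. The next is the coding end of an Eif2d transcript (chr1:131178600-131178638, plus strand, 39 bases), where the same bases also lie in the coding sequence of Rassf5 on the minus strand. The last is the start of an Eef1b2 transcript (chr1:63176825-63176854, plus strand), which shares only 9 bases with the start of Ndufs1.
Eif3d: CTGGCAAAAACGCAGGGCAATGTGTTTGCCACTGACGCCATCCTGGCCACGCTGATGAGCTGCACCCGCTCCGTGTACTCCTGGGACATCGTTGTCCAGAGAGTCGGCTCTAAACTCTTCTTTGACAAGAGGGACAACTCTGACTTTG
Eif2d: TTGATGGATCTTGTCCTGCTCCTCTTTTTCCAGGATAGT
Eef1b2: AGTTCCGCCggaagtagccgaggccttgcg

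Most of the counts given to this set lay in 1 row. Gm17638 (chr15:77961674-77967126, plus strand) had 15602, 15405, 16401 and 11864 counts in replicates 1 to 4, against 63, 52, 38 and 65 for Eif3d (chr15:77958998-77970824, minus strand), which encodes a cap-binding subunit of eIF3. The order was the same in each library and the values did not overlap. Gm17638 stood at 2466 TPM ± 84.3 and Eif3d at 21.2 ± 6.94 (SD, n = 4). The log2 ratio of TPM + 1 was 6.85 ± 0.495 (SD, n = 4), positive in 4 of 4 libraries (p = 0.125, exact two-sided sign-flip permutation test, the smallest p that 4 libraries allow). The pair was chosen with earlier results of these data known, so this p decides nothing and the values are descriptive. Replicate 3 held the highest count of Gm17638 and the lowest of Eif3d.

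Gm17638 lies wholly inside the span of Eif3d. Of its 4343 exon bases, 625 (14.4%) fall in Eif3d exons, in 7 blocks that are all coding sequence in the Eif3d transcript printed above, and 3718 (85.6%) fall in Eif3d introns. The shared bases are 32.7% of the exon bases of Eif3d. Gm17638 held 65.2% ± 3.64 of the counts of all 64 members and 0.706% ± 0.0370 of all counts in a library (SD, n = 4). The other 63 members together held 0.377% ± 0.0446.

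Exon overlaps were as common in this set as elsewhere: 14 of the 63 protein-coding members had one, and 22.1% of all protein-coding rows and 16.2% of all rows did. With Gm17638 these 15 rows held 81.9% ± 3.93 of the members' counts (SD, n = 4). Replicate 3 was highest at 87.2% (95% Wilson interval 86.7 to 87.6), followed by replicate 2 at 82.6% (82.1 to 83.1). Replicates 4 and 1 held 79.2% (78.6 to 79.8) and 78.6% (78.1 to 79.1). Without Gm17638 the 14 other rows held 48.5% ± 6.32, again with the highest share, 57.0%, in replicate 3. Over the whole library, rows with an overlap held 93.4% ± 0.855 of the counts (SD, n = 4), and replicate 3 was again highest at 94.5%.

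Members with an overlap stood higher than members without one in every library. The difference of their median log2(TPM + 1) was 1.49, 1.86, 2.16 and 1.99 in replicates 1 to 4, with a mean of 1.87 ± 0.284 (SD, n = 4). The median of mean TPM was 24.8 for the 15 members with an overlap and 7.23 for the 49 without. Without Gm17638, which is not protein-coding, the difference of median log2(TPM + 1) was 1.70 ± 0.199 (SD, n = 4). The same difference over all protein-coding rows was 1.20 ± 0.112, with a median of 0 in every library for those without an overlap. Over protein-coding rows that reached 1 TPM in all libraries it was 1.31 ± 0.150, so the direction was not particular to translation factors. Of the 64 members 51 reached 1 TPM in all 4 libraries, 13 of the 15 with an overlap and 38 of the 49 without. Among all protein-coding rows 21.8% did, 46.8% with an overlap and 14.7% without, and among rows of all types 13.3% did.

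**Figure D1:**
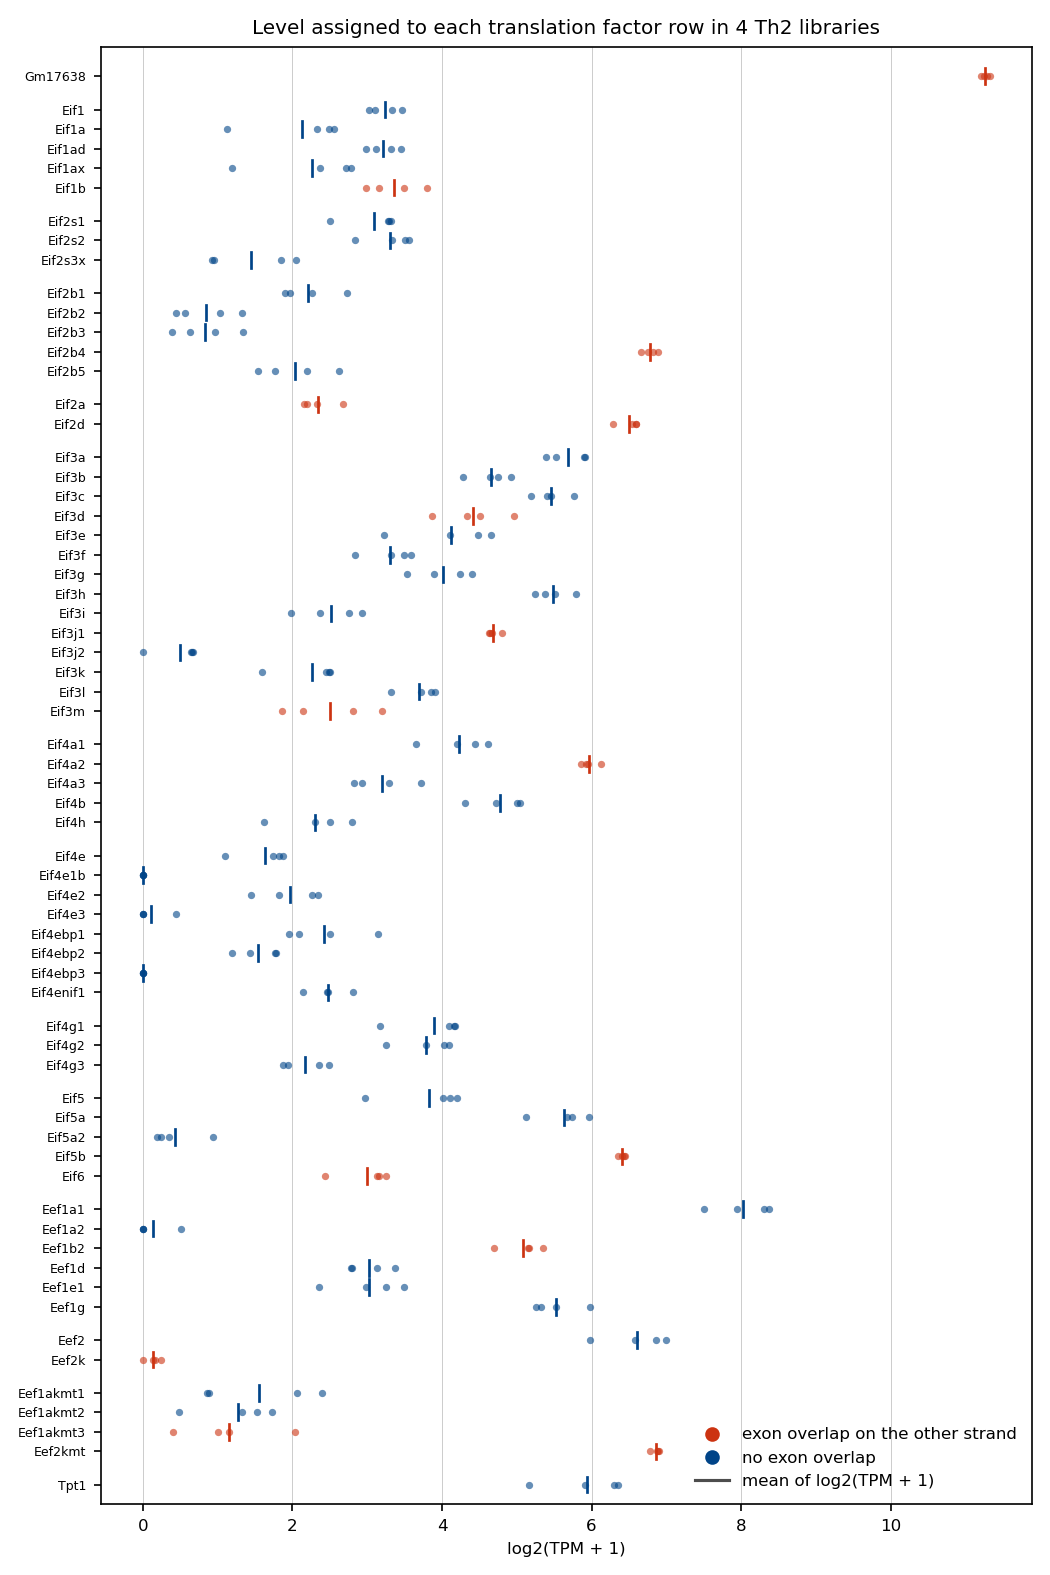
Level of each of the 64 members, as log2(TPM + 1) on the horizontal axis, by role down the page. Points are the 4 libraries, bars the mean, red rows have an exon overlap on the other strand and blue rows have none. Gm17638 stands alone near 2466 TPM. Among the rows highest in their roles are Eif2b4, Eif2d, Eif5b and Eef2kmt, with an overlap, and Eef1a1 and Eef2, without one.

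Among the first factors on the small subunit, Eif1, which guards start codon choice, had 32, 27, 22 and 18 counts and stood at 8.47 TPM ± 1.35. Eif1a and Eif1ax, which encode near-identical eIF1A proteins, stood at 3.67 ± 1.70 and 4.22 ± 2.09, and replicate 3 was lowest for both. Eif1b and Eif1ad were at 9.49 ± 2.69 and 8.37 ± 1.34 (all SD, n = 4). Eif1b, the only 1 of these 5 rows with an overlap, had the highest mean, and its libraries overlapped those of Eif1 and Eif1ad.

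The 3 subunits of eIF2, which carries the initiator tRNA, had no overlap and stood at 7.77 TPM ± 2.07 (Eif2s1), 9.08 ± 2.09 (Eif2s2) and 1.88 ± 1.14 (Eif2s3x). Of the 50-base windows of Eif2s3x transcripts 34.6% also occur in Gm2223, so the count of Eif2s3x is uncertain. Eif2d, whose protein can place the initiator tRNA without the GTPase cycle of eIF2, had 1063, 998, 999 and 641 counts and stood at 89.9 TPM ± 8.66 (SD, n = 4). It shares 78 bases with Rassf5, a Ras-association gene, which had 63, 70, 57 and 38 counts. Eif2a, another initiator tRNA factor, was at 4.10 TPM ± 0.881. Eif2d was above all 3 eIF2 subunits and Eif2a in every library.

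The exchange factor eIF2B, which recharges eIF2 with GTP, differed widely between its subunits. Eif2b4, which encodes the delta subunit, had 421, 369, 449 and 329 counts and stood at 109 TPM ± 7.47, while the other 4 subunits lay between 0.831 and 3.76 TPM on average. Eif2b2 and Eif2b3 had 1 to 4 and 3 to 15 counts. Eif2b4 shares 204 bases at its start with Snx17, a sorting nexin gene, which had 166, 177, 130 and 104 counts. No other eIF2B gene had an overlap, and Eif2b4 was above all of them in every library.

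Of the 14 rows of eIF3, the scaffold of the small subunit, 13 reached 1 TPM in all libraries. Without an overlap the means ran from 0.430 TPM (Eif3j2) to 51.1 (Eif3a). Eif3a, the largest subunit, had 461, 332, 312 and 347 counts, Eif3h stood at 44.1 TPM ± 7.53, Eif3c at 43.3 ± 7.49 and Eif3b at 24.4 ± 4.57 (SD, n = 4). Eif3k, Eif3i and Eif3f lay lower, at 3.93, 4.87 and 9.12 TPM.

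Eif3j1 and Eif3m each have an overlap, as Eif3d does. Eif3j1, whose product binds eIF3 loosely, had 210, 198, 209 and 177 counts, against 185, 186, 154 and 98 for Spg11 on the other strand. Of the 50-base windows of Eif3j1 transcripts 50.9% also occur in other genes, most of them in Eif3j2, so the split between these copies is uncertain. Eif3m had 32, 22, 10 and 10 counts, against 271, 244, 276 and 211 for Ccdc73, a coiled-coil gene whose span holds it. By TPM Eif3m was lower in replicates 3 and 4 (2.62 and 3.43) than in replicates 1 and 2 (8.16 and 5.98).

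Among the factors that unwind the mRNA leader, the helicase gene Eif4a2 had 459, 524, 480 and 359 counts and its paralog Eif4a1 136, 145, 74 and 85. Eif4a2 stood at 61.7 TPM ± 5.27 and Eif4a1 at 18.3 ± 5.14 (SD, n = 4), and Eif4a2 was the higher row in every library. Eif4a2 shares 194 bases at its 3′ end with Rfc4, a clamp loader gene with 12, 9, 10 and 10 counts. Of the windows of Eif4a1 28.4% also occur in other genes, mostly the pseudogene Eif4a-ps4, against 13.6% for Eif4a2. The helicase cofactors Eif4b and Eif4h stood at 26.9 ± 6.10 and 4.14 ± 1.60 TPM, and Eif4a3, which serves the exon junction complex, at 8.41 ± 2.75.

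None of the 8 rows of the cap-binding group had an overlap, 5 reached 1 TPM in all libraries, and the highest mean was 4.65 TPM. Eif4e, the cap-binding protein itself, had 23, 20, 10 and 18 counts (2.17 TPM ± 0.702), Eif4ebp1, its inhibitor under mTOR control, 26, 9, 15 and 8, and Eif4ebp2 21, 20, 11 and 11. The scaffold genes Eif4g1 and Eif4g2 stood at 14.5 ± 4.35 and 13.2 ± 3.38 TPM and Eif4g3 at 3.55 ± 0.946 (SD, n = 4). Eif4e1b and Eif4ebp3 had 0 counts in all libraries and Eif4e3 had 0, 0, 0 and 1. For Eif4ebp3, 67.3% of the exon bases are shared with Ankhd1 on the same strand, and a pair that meets both genes is not assigned to either under the options in the headers.

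Among the factors of start codon commitment and subunit joining the row with the longest overlap was the highest. Eif5b, the GTPase that joins the large subunit, had 1258, 1193, 1159 and 921 counts and stood at 84.0 TPM ± 2.35, the smallest relative spread of any member. It shares 1643 bases at its 3′ end with Rev1, a translesion polymerase gene with 87, 58, 70 and 62 counts. Eif5a, whose product carries the hypusine residue and helps ribosomes through difficult peptides, had no overlap, with 222, 169, 119 and 140 counts (49.5 TPM ± 11.5). Eif5 was at 13.9 ± 4.80 and Eif6 at 7.17 ± 1.86 TPM, and the paralog Eif5a2 had 7, 1, 2 and 1 counts.

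Eef1a1 and Eef2 were the highest of the 49 members without an overlap. Eef1a1, which delivers aminoacyl-tRNA to the ribosome, had 1195, 869, 661 and 928 counts and stood at 268 TPM ± 69.5. Eef2, the translocase, had 580, 448, 305 and 476 counts and stood at 99.9 TPM ± 28.4 (SD, n = 4). Both were lowest in replicate 3. Eef1a2, the paralog of muscle and nerve, had 0, 0, 0 and 1 counts. Of the windows of Eef1a1 40.4% also occur in transcripts of 21 other genes, so the count of Eef1a1 itself is uncertain.

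The exchange subunits of eEF1 ranged more widely. Eef1g had 245, 137, 149 and 132 counts (45.8 TPM ± 11.5), Eef1b2 153, 125, 93 and 98 (33.5 ± 6.23) and Eef1d 69, 50, 51 and 62 (7.23 ± 1.64). Of the windows of Eef1g 44.2% also occur in other genes, mostly Gm4366, so its count is uncertain as well. Eef1b2 counts as a row with an overlap through the 9 bases printed above, and Ndufs1, a respiratory chain gene, had 29, 24, 14 and 10 counts. Tpt1, the translationally controlled tumour protein, binds elongation factors and is among the abundant mRNAs of growing cells. It had no overlap and 281, 200, 122 and 217 counts, or 63.2 TPM ± 21.2. For Tpt1 18.7% of the windows also occur in other genes, all of these in Tpt1-ps3, so its count is uncertain too.

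The enzymes that modify elongation factors ranged from the highest protein-coding row with an overlap to rows near 0. Eef2kmt, which methylates eEF2, had 468, 447, 458 and 325 counts and stood at 115 TPM ± 4.47 (SD, n = 4). It overlaps Alg1, a glycosylation gene with 258, 278, 264 and 220 counts, by 472 bases at its 3′ end, and Gm15983 by 143 bases at its start. Eef1akmt1, Eef1akmt2 and Eef1akmt3, which methylate eEF1A, each had 12 counts or fewer per library. Eef2k, the kinase that stops eEF2, had 2, 1, 0 and 1 counts, while Gm15774 on the other strand, which shares 101 bases with it, had 71, 77, 76 and 61. By TPM the libraries of Eef2kmt all lay within the range of those of Eef2.

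Read as pairs per kilobase of exon, the 14 protein-coding members with an overlap were denser than the row opposite them in all 4 libraries for 8 pairs, less dense in all 4 for 3, and mixed for 3. The median log2 ratio of opposite row over member was -0.80 ± 0.101 (SD, n = 4). The same order was not counted over all pairs on opposite strands, so it cannot be called particular to translation factors. How the genes meet differed between these groups. In 5 pairs the genes meet at their 3′ ends (Eif5b, Eif4a2, Eif2d, Eif3j1 and Eef2kmt), and the member was denser in every library in all 5. In 6 pairs they meet at their 5′ ends, and the member was denser in all libraries for Eef1b2, Eif6 and Eif2b4 and mixed for Eif1b, Eif2a and Eef1akmt3. The row opposite Eif6, Gm16098, had 0 counts in all 4 libraries, against 35, 17, 31 and 24 for Eif6. In the 3 nested pairs the opposite row was denser, with Eif3d and Eef2k around, and Eif3m inside, their opposite gene.

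By level, members that meet their partner at the 3′ end had a median of 84.0 TPM (24.8 to 115), and those that meet it at the 5′ end 8.33 TPM (1.41 to 109). Over all protein-coding rows with an overlap of these kinds the medians were 4.11 and 1.02 TPM. The set holds only 5 and 6 such rows, and shared length differs between them, from 9 to 1643 bases. Whether a pair's counts came from transcripts of the member or of its partner was not tested.

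**Figure D2:**
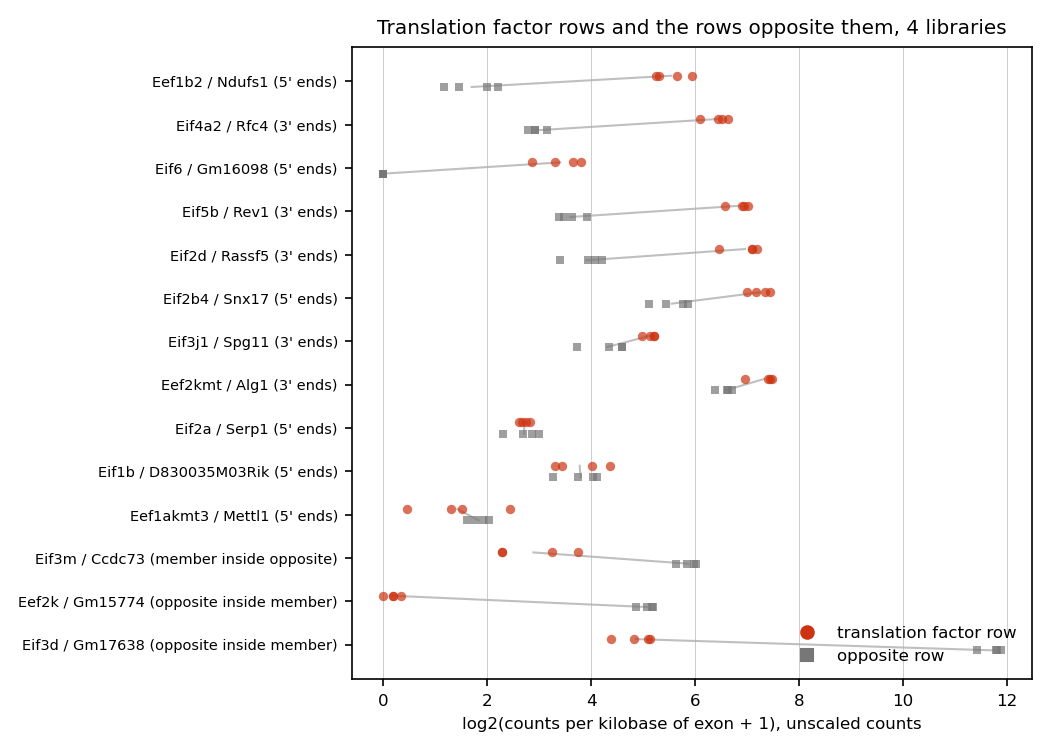
Counts per kilobase of exon, as log2(value + 1), for 14 translation factor rows (red circles) and the row that shares the most exon bases with each on the other strand (grey squares), 1 point per library, with how the genes meet in brackets. The pairs run from Eef1b2, denser than Ndufs1, to Eif3d, less dense than Gm17638.

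By CPM of the whole library, replicate 3 was lowest for most members without an overlap. For the 11 members with an overlap and a mean of at least 20 counts, the median deviation from a row's own mean log2(CPM + 1) stayed between -0.02 and 0.05 in all replicates, and over all rows with an overlap it was 0.04, 0.07, 0.04 and -0.13 in replicates 1 to 4. Of these 11 members 3 were lowest by CPM in replicate 3 and 5 in replicate 4, beside 18.3% and 59.1% of all 2983 such rows. Of the 30 members without an overlap that had a mean of at least 20 counts, 28 had their lowest CPM of the whole library in replicate 3, and the exceptions were Eef1g and Eif4g3, lowest in replicate 2. Among all 1376 such rows without an overlap 59.2% were lowest in replicate 3. The median deviation of the 30 members was 0.26, 0.01, -0.49 and 0.18 in replicates 1 to 4, and 0.21, 0.08, -0.26 and 0.02 over all rows without an overlap. Replicate 3 also had the largest share of counts in rows with an overlap, and its part in the members' low values was not tested.

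**Figure D3:**
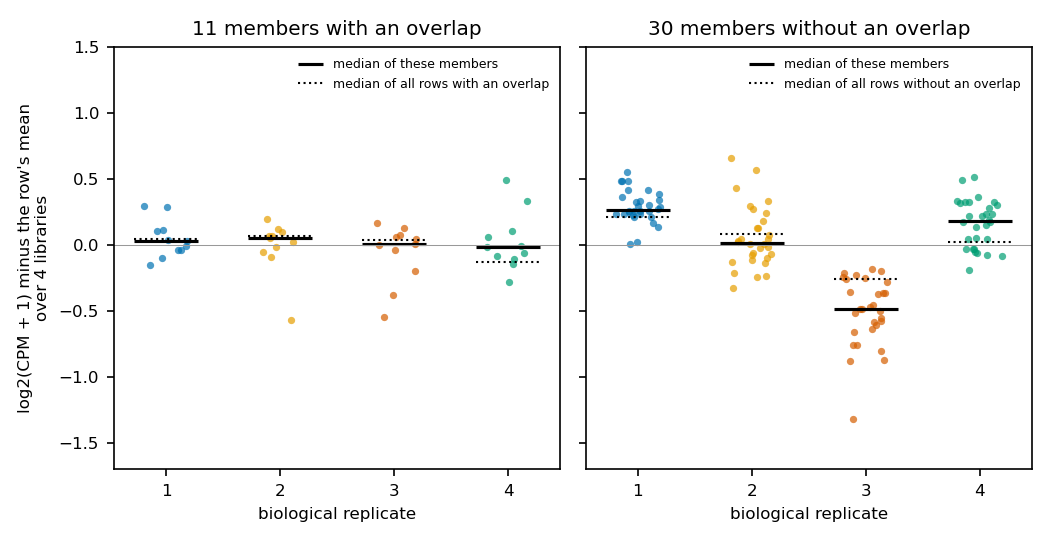
Deviation of each member's log2(CPM + 1) from its own mean over the 4 libraries, by replicate, for 11 members with an overlap (left) and 30 without (right) that had a mean of at least 20 counts. Solid bars are medians of these members and dotted bars medians of all rows of that kind. The members without an overlap lie below 0 in replicate 3, with a median of -0.49.

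The spread between libraries was smaller for members with an overlap. Their coefficient of variation of CPM had a median of 10.1% over the 11 rows, against 24.9% over the 30 without. Over all rows of at least 20 counts it was 11.9% with an overlap and 22.4% without. Rows with an overlap held more counts, with a median of 392 against 67.3 for these members, so counting error differs between the groups too. The members without an overlap held 0.238%, 0.193%, 0.136% and 0.218% of all counts in replicates 1 to 4. Of the counts in rows without an overlap they held 3.16%, 2.81%, 2.48% and 3.27%. Replicate 3 was lowest on both scales. By member the count depended on the scale: as a share of the counts in rows without an overlap, a scale chosen after seeing the data, 20 of the 30 members were lowest in replicate 3, beside 34.2% of all such rows. Of the other 10, 8 were lowest in replicate 2 (Eef1d, Eef1g, Eif1ad, Eif3a, Eif3c, Eif3h, Eif4a3 and Eif4g3), Eif1 in replicate 4 and Eif4enif1 in replicate 1.

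Whether a row varied between replicates by more than rows of like abundance was tested in edgeR over 5064 rows, of which 43 were members. The other 21 members had too few counts. Of all rows 0.454% were called (adjusted p under 0.05), and 3 members were: Eef1a1 (edgeR goodness of fit, adjusted p = 0.000894), Eef2 (edgeR adjusted p = 0.00175) and Tpt1 (edgeR adjusted p = 0.0186). At an unadjusted p under 0.05 there were 11 members and 5.13% of all rows. All 3 genes had their lowest level in replicate 3, at 180, 62.4 and 34.8 TPM, against 245 to 330, 94.9 to 127 and 59.2 to 80.9 TPM in the other libraries. The calls were lost without replicate 3 (edgeR adjusted p = 0.838, 1.00 and 1.00 for Eef1a1, Eef2 and Tpt1) and without replicate 4 (0.0580, 0.0896 and 0.0896). When rows without an overlap were fitted alone, with a biological coefficient of variation of 0.145 against 0.108 over all rows, each of the 3 had an edgeR adjusted p of 0.996. With no filter on low counts, or with a mean of at least 10 counts, the smallest edgeR adjusted p of any member was 0.550 and 0.0614.

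**Figure D4:**
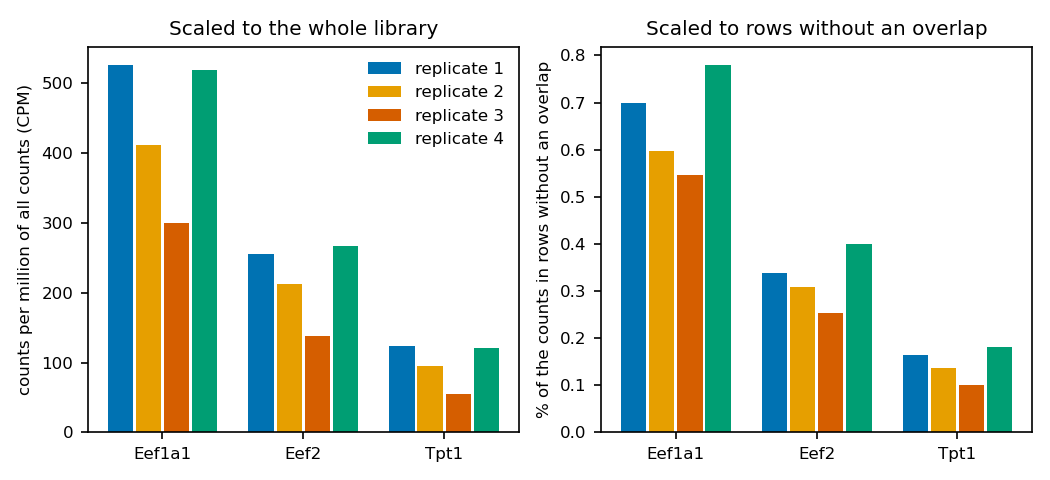
Eef1a1, Eef2 and Tpt1 in each of the 4 libraries, as CPM of the whole library (left) and as a percentage of the counts in rows without an overlap (right). These 3 are among the 20 of 30 members lowest in replicate 3 on both scales, for Eef1a1 0.547% against 0.598% to 0.779% on the right.

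Other genes of the pathway were read the same way. Of 42 genes on a list of regulators, release and rescue factors, 41 had a row under that symbol. An overlap was found for 18 of the 41, beside 22.1% of all protein-coding rows. In all libraries 25 reached 1 TPM, 12 of 18 with an overlap and 13 of 23 without. Among all protein-coding rows 21.8% did, 46.8% with an overlap and 14.7% without. The median of mean TPM on the list was 2.42 with an overlap and 2.16 without, against 24.8 and 7.23 for the members. The highest was Eif2ak1, a kinase of eIF2, with 1851, 1778, 1737 and 1296 counts (212 TPM ± 7.93), on a gene that shares 487 bases with Aimp2. Dhps, which makes the hypusine of eIF5A, stood at 57.3 ± 3.34 TPM and shares 128 bases with Wdr83. Pabpc1, the poly(A)-binding protein, had no overlap, with 280, 235, 151 and 171 counts (26.2 TPM ± 6.09), and the release factor gene Gspt1, which has an overlap, stood at 20.6 ± 5.88 (SD, n = 4). Of the 41 rows 19 were tested for variation in edgeR and 0 were called, beside 0.454% of all rows tested. At an unadjusted p under 0.05 there were 6, beside 5.13% of all rows tested.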

How the data were processed

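RNA of Th2 cells was measured in 4 libraries of 1 group. Per the file headers, the deposited tables are counts from featureCounts 1.4.6-p4: whole read pairs with both ends mapped, summed over the exons of GENCODE vM13 (mm10) genes at strand setting 1, with no normalization. The headers' alignment files carry the name of STAR without a version. The assay label says total RNA, and the linked protocol is for polyadenylated RNA. TPM was computed from the deposited counts and exon lengths. GENCODE vM21 supplied names and types (224 rows had no match) and the transcripts for sequences and for the search of shared 50-base windows. Coordinates are those of the deposited tables.

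A row has an overlap if at least 1 of its exon bases lies in an exon of the other strand, and its opposite row is the one sharing the most bases. For variation between replicates, edgeR 4.0.16 (with limma 3.58.1 in R 4.3.3) fitted an intercept to each row after filterByExpr and TMM scaling, and its goodness-of-fit p under trended dispersion was adjusted by Benjamini-Hochberg. The script was run on simulated counts drawn with a single dispersion. Of 200 rows changed in 1 library it called 65.5% at 2-fold and 99.5% at 4-fold, and it called 0 rows with no change. Fitted alone, the real rows had a biological coefficient of variation of 0.0793 with an overlap and 0.145 without. The simulation did not include this difference, so it gives no error rate for the 3 members called. Alternatives used DESeq2 1.42.0. Other steps used Python 3.11.15 with numpy 2.4.6, pandas 2.3.3 and SciPy 1.17.1, and figures Matplotlib 3.10.9. Intervals and floors cover counting error only, because pairs carry no molecular identifiers. As a check for a library deposited more than once, chi-square per degree of freedom was 2.45 to 3.95 between replicates 1 to 3 and 19.9 to 24.9 for pairs with replicate 4, the library richest in CT010467.1.

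The members, lists and tests were chosen with earlier results of these data known. Values in every library are given for the 12 highest members by TPM, the 5 highest without an overlap, members whose opposite row has a mean of at least 100 counts and members called as varying. Further members were given in every library after their values were seen.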

Additional observations from a re-analysis of the deposited data

How the results depend on the processing

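Of the members 51 to 53 reached a detection threshold under all 7 alternatives (51 or 52 with each replicate left out in turn). The share of member counts in rows with an overlap was 80.1% to 83.0% with a replicate left out and 48.5% without Gm17638, an alternative added after seeing the data. The level of members with an overlap over members without stayed between 1.63 and 2.02 on the log2 scale under 9 alternatives. The opposite row over the member was -0.67 with at least 50 shared bases and -0.83 to -0.76 with a replicate left out. Gm17638 over Eif3d ranged from 6.65 to 8.08 under 7 alternatives. The 8.08 came from counts not scaled by exon length, and the others ran from 6.65 to 7.04.

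Members without an overlap that were lowest in replicate 3 numbered 28 of 30 by CPM and 20 as a share of the counts in rows without an overlap. The number of members varying between replicates was 3 with DESeq2 size factors and without CT010467.1 and Gm42418, and 2 with a common dispersion. It was 0 with no filter on low counts, 0 with a mean of at least 10 counts, 0 among DESeq2 dispersion outliers and 0 with rows without an overlap fitted alone. It was 0 to 3 with a replicate left out, 0 without replicate 3 and 0 without replicate 4. At an unadjusted p under 0.05, 1 to 14 members passed in edgeR under these settings. The causes were not tested. No paired analysis was possible because the series has 1 group. Depth limits rows of few counts: 3 counts allow 1.32 to 1.68 CPM.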
